A study of Homo sapiens with 6 samples.

Results

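RNAseq of the castration resistant prostate cancer (CRPC) cell line C4-2B and of its cabazitaxel (CBZ)-resistant subclone RC4-2B was used to describe the genes of the microtubule motors. The 61 genes were the protein-coding rows, of 58735 rows in all, whose symbols name a kinesin (KIF or KIFC with a number), a subunit or light chain of cytoplasmic dynein (DYNC, DYNLL, DYNLRB, DYNLT) or a subunit of dynactin (DCTN). They were 42 kinesin genes and 19 dynein and dynactin genes, and 53 of them had enough reads to be tested. C4-2B is the parental line. RC4-2B was selected from it over 4 months in cycles of 72 h of CBZ at concentrations raised from 0.1 nM to 20 nM, each followed by a recovery. Each line gave 3 biological replicates, grown for 72 h before RNA isolation, and no drug is named for that culture. RC4-2B is a single subclone, so effects of drug selection and differences that arose by chance in that subclone cannot be told apart, and the p-values measure the spread between the libraries of each line.

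Kinesins and dynein are ATPases that step along microtubules. Most kinesins move towards the growing plus end, cytoplasmic dynein moves towards the minus end with dynactin as its processivity factor, and a set of kinesins works mainly in mitosis, where it separates the poles, aligns the chromosomes and completes cytokinesis. CBZ and other taxanes bind the microtubule itself and block its depolymerization, and the motors run on that track.

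Sets of mitotic genes often carry a cell-cycle homology region (CHR) near the transcription start and a CCAAT box upstream of it. Promoters of the motor genes, from 250 bases before to 50 bases after the start (RefSeq, GRCh38.p14), were searched on both strands for TTTGAA (the CHR core) and for CCAAT, and the table held a promoter for 51 of the 61 genes. Beside mitotic kinesins that hold both elements, the stretch from 100 bases before to 30 bases after the start is shown for the mitotic kinesin KIF20A, which had no CHR core, and for DYNC1H1 and DYNC1I1, the motor genes that passed the edgeR test between the lines. Sequences are written 5′ to 3′ on the strand of the gene, and capitals mark the CHR core and the CCAAT box in either orientation.
KIF11 (chr10:92593030-92593159, plus strand): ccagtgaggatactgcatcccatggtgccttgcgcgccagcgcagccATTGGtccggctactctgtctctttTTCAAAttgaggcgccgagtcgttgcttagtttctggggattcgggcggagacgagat
KIF14 (chr1:200620722-200620851, minus strand): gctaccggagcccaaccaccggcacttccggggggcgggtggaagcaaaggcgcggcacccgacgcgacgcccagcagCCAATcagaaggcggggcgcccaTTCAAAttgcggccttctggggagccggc
KIF18A (chr11:28108127-28108256, minus strand): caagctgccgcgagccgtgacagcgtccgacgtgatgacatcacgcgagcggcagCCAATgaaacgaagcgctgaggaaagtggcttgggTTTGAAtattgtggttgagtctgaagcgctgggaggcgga
KIF18B (chr17:44947744-44947873, minus strand): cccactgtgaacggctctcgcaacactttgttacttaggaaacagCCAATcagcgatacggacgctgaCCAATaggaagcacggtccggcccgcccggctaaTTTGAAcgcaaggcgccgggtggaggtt
KIF23 (chr15:69414249-69414378, plus strand): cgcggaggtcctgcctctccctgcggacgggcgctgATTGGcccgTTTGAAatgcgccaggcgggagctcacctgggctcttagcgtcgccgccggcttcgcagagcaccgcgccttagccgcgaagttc
KIF4A (chrX:70290004-70290133, plus strand): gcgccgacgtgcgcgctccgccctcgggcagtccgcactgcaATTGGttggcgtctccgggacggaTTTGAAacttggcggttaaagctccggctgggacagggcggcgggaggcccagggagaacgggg
KIFC1 (chr6:33391723-33391852, plus strand): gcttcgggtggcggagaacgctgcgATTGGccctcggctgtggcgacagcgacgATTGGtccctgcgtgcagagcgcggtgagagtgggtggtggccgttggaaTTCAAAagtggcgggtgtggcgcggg
KIF20A (chr5:138179012-138179141, plus strand): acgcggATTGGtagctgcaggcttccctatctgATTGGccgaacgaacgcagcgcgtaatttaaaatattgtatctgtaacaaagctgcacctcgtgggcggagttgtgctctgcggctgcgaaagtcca
DYNC1H1 (chr14:101964473-101964602, plus strand): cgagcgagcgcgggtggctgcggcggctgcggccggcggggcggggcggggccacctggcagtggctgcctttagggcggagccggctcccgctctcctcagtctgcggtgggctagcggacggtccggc
DYNC1I1 (chr7:95772454-95772583, plus strand): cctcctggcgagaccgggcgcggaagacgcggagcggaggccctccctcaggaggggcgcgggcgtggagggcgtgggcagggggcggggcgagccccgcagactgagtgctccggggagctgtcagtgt

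The CHR core was in the promoters of 10 of 14 mitotic kinesins (71.4%) and in 1 of 12 transport kinesins, KIF5B. The 17 dynein and dynactin promoters and the 8 promoters of other kinesins held none. By the same search 9.16% of the promoters of 9909 tested protein-coding genes and 15.2% of all 35116 promoters in the table held it. A CCAAT box was in 11 of 14 mitotic kinesin promoters (78.6%), in 3 of 12 transport kinesin promoters and in 36.7% of those of tested genes, and 34.6% of all promoters in the table held it. Both elements were in 9 of 14 mitotic kinesins and in 3.90% of tested genes. In 9 of the 10 mitotic kinesins with a CHR core, the core started within 50 bases of the transcription start. The median GC content of the mitotic kinesin promoters was 62.0%, against 71.8% for transport kinesins and 65.7% for tested genes, and its part in these counts was not tested. The promoters of DYNC1H1 and DYNC1I1 held neither element. These matches describe letters and not binding sites, and KIF4A and its near copy KIF4B are both among the 10.

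The libraries held between 15707134 and 18052517 reads on genes, and 3 reads correspond to 0.170 to 0.187 CPM (counts scaled to library size). RC4-2B replicate 2 stood apart from the other libraries. The SD of the log2 difference between libraries of the same line was 0.136 to 0.195 within C4-2B and 0.219 between RC4-2B replicates 1 and 3. It was 0.606 and 0.530 for the pairs with replicate 2, whose values also followed the GC content of the transcripts. The Spearman correlation of these differences with transcript GC content was 0.76 and -0.69 for the pairs with RC4-2B replicate 2. It was 0.40 between RC4-2B replicates 1 and 3, and 0.32, 0.31 and 0.06 within C4-2B. The trend was thus strongest with replicate 2 of RC4-2B but not limited to it. Log2 fold changes of 0.1 or more in size that moved by over 1.5 times without RC4-2B replicate 2 are therefore given with and without it. Prostate luminal markers were present in both lines, with a mean FPKM (fragments scaled to gene length and library size) of at least 1 for 8 of 8 genes and a summed FPKM of 696 to 726 in C4-2B and 494 to 631 in RC4-2B. Of the other markers, 0 of 3 basal, 0 of 4 leukocyte, 1 of 5 neuroendocrine and 2 of 4 fibroblast genes had enough reads to be tested. KLK3, a luminal androgen target, fell by 4.33 on the log2 scale (adjusted p = 0.00015 by edgeR), and DESeq2 also called KLK2 lower (adjusted p = 0.022) and the fibroblast gene COL3A1 higher (adjusted p = 0.022), at 0.0755 FPKM in C4-2B and 0.250 FPKM in RC4-2B. COL1A1 had a log2 fold change of 0.30 that did not pass in either, while COL1A2 was at 0 in all libraries, and the part of these changes in the values of the motor genes was not tested.

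**Figure D1:**
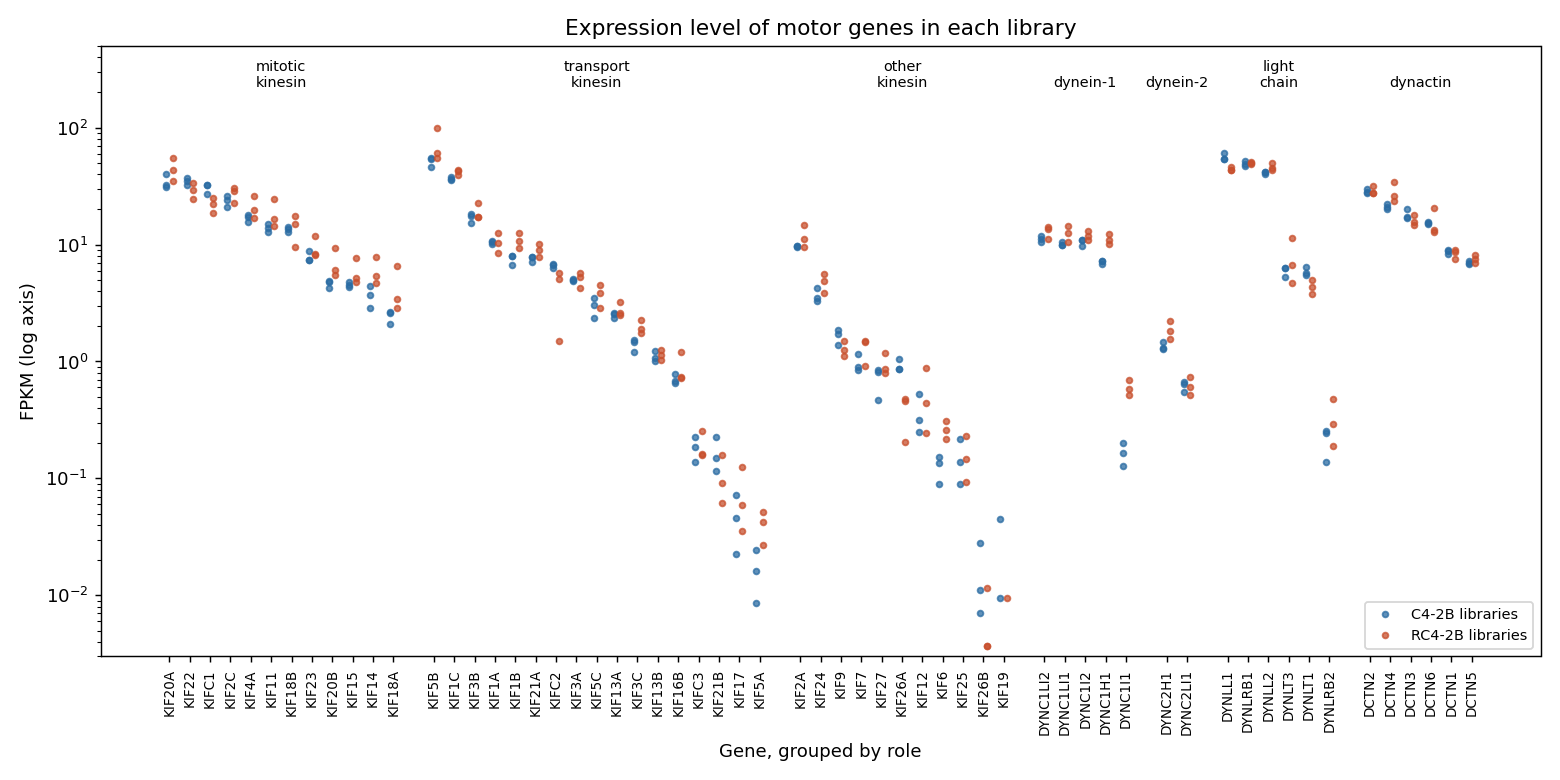
FPKM (log axis) of motor genes in each library (C4-2B blue, RC4-2B red), 1 point per library, with genes grouped by role and ordered by mean level. KIF5B, KIF20A and the dynein light chains DYNLL1, DYNLRB1 and DYNLL2 lie near the top, and DYNC1I1 is separated between the lines. The genes KIF2B and KIF4B (mean 0 and 0.0019 FPKM) and the libraries of KIF19 at 0 are not drawn.

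To ask which motors these prostate cells use, levels were compared per length, as FPKM. Over all members of each role, low ones included, the median FPKM in C4-2B was 10.7 for the mitotic kinesins, 2.95 for the transport kinesins and 0.714 for the other kinesins. It was 10.1 for the subunits of dynein-1, the cytoplasmic dynein of interphase and mitosis, 23.5 for the dynein light chains, which also bind many other proteins, and 16.7 for dynactin. Over all 6 libraries 22 of the 61 genes had a mean FPKM of at least 10 and 17 had a mean under 1. KIF2B, a microtubule depolymerase, and KIF4B were at or under 3 reads in all 6 libraries. KIF5A, KIF17, KIF19, KIF25, KIF26B and DYNLRB2 also had too few reads to be tested. KIF5A, the neuronal conventional kinesin, had 1, 2 and 3 reads in C4-2B and 3, 6 and 5 reads in RC4-2B.

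Between the lines, few motor genes passed the test, and the values of the motor genes leaned upwards in RC4-2B. Of 53 tested, 39 were above 0, beside 7627 of all 15054 genes tested. Against a median log2 fold change of 0.0062 for all genes, that of the motor genes was 0.19. That median was 0.13 with GC correction, 0.13 without RC4-2B replicate 2 and 0.07 with both. The lines were compared by the quasi-likelihood test of edgeR over 15054 genes, and p-values were adjusted by the Benjamini-Hochberg method (threshold 0.05). Of the 53 motor genes tested, 2 rose, 0 fell and 51 did not pass, while 298 of all genes tested (1.98%) passed. DESeq2, the tool of the study, called 3 motor genes higher and 1 lower of 54 tested, beside 5.93% of all genes. At an unadjusted p under 0.05 there were 10 motor genes higher and 4 lower, beside 21.4% of all genes. The 3 libraries of one line lay wholly above or below those of the other for 19 of 53 motor genes, 14 higher and 5 lower in RC4-2B, beside 34.1% of all genes (2559 higher and 2579 lower). By these rules the shares of motor genes were 3.77%, 7.41%, 26.4% and 35.8%, and were read as close to the background. For 41 of the 53 genes the log2 fold change was under 0.5 in size, and for 39 its 95% interval included 0.

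**Figure D2:**
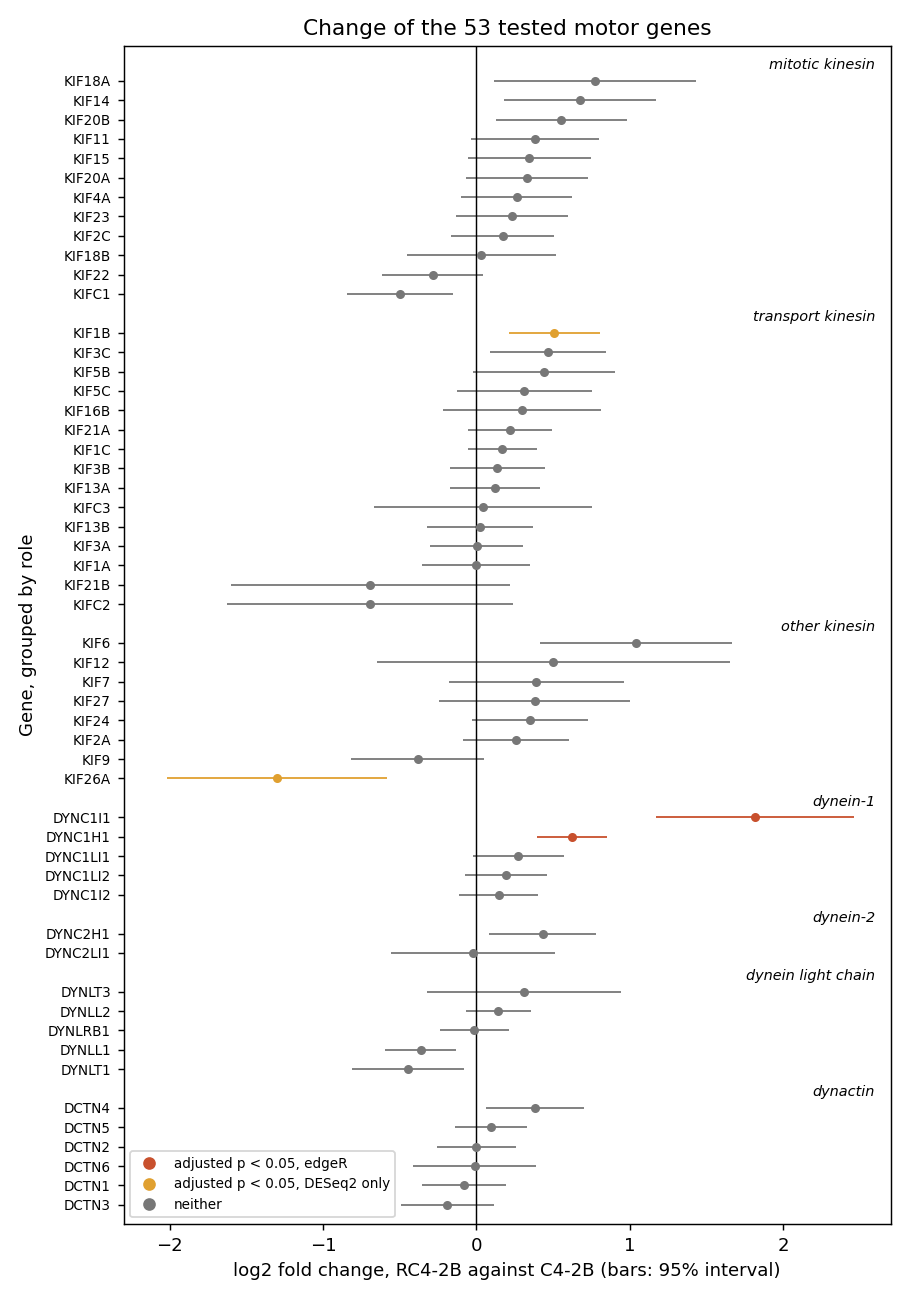
Log2 fold change of RC4-2B against C4-2B for the 53 tested motor genes, grouped by role, as points with 95% intervals from the edgeR fit. DYNC1I1 (1.82) and DYNC1H1 (0.63) passed an adjusted p of 0.05 in edgeR, KIF1B (0.51) and KIF26A (-1.30) in DESeq2 alone, and the other genes in neither.

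The genes that rose in RC4-2B both encode subunits of cytoplasmic dynein-1: DYNC1H1, the heavy chain that holds the motor domain, and DYNC1I1, an intermediate chain that binds dynactin. DYNC1H1 (ENSG00000197102, GRCh38, chr14:101964510-102056443, plus strand) measured 279.9, 298 and 293 CPM in C4-2B and 416, 484 and 443 CPM in RC4-2B. Its lowest RC4-2B library was above its highest C4-2B library. The log2 fold change was 0.63 (95% interval 0.40 to 0.85, adjusted p = 0.021 by edgeR and 0.00028 by DESeq2). Per length, DYNC1H1 rose from 7.07 ± 0.22 to 11.1 ± 1.11 FPKM (SD, n = 3). The genes that overlap it in the annotation are pseudogenes with 0 reads.

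DYNC1I1 (ENSG00000158560, GRCh38, chr7:95772506-96110322, plus strand) is known as the intermediate chain of neurons, and DYNC1I2 as the form most cells use. DYNC1I1 had 11, 15 and 18 reads in C4-2B and 42, 60 and 50 reads in RC4-2B, or 0.655, 0.848 and 1.02 CPM against 2.62, 3.42 and 2.93 CPM. The groups did not overlap, and the log2 fold change was 1.82 (95% interval 1.17 to 2.46, adjusted p = 0.020 by edgeR and 0.00070 by DESeq2). DYNC1I1 remained the minor form at the RNA level. Its share of the summed FPKM of both intermediate chains was 1.55% ± 0.34 in C4-2B and 4.78% ± 0.31 in RC4-2B (SD, n = 3), while DYNC1I2 had a log2 fold change of 0.15 (adjusted p = 0.44 by edgeR).

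Both calls depended on single libraries. Leaving out C4-2B replicate 1, 2 or 3 gave an adjusted p by edgeR of 0.16, 0.14 and 0.14 for DYNC1H1 and of 0.14, 0.12 and 0.082 for DYNC1I1, and leaving out RC4-2B replicate 3 gave 0.090 and 0.078. Without RC4-2B replicate 2 the values were 0.57 (adjusted p = 0.00019) and 1.71 (adjusted p = 0.0036) on the log2 scale.

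The remaining dynein-1 subunits did not pass the test. The light intermediate chains, which tie the motor to its adaptors, had log2 fold changes of 0.27 for DYNC1LI1 (adjusted p = 0.25 by edgeR, and 0.18 without RC4-2B replicate 2) and 0.19 for DYNC1LI2 (adjusted p = 0.35). DYNC1LI1 measured 10.5, 9.96 and 9.97 FPKM in C4-2B and 10.4, 14.4 and 12.7 FPKM in RC4-2B. DYNC1LI2 measured 10.5, 11.2 and 11.8 FPKM in C4-2B and 11.2, 14.2 and 13.5 FPKM in RC4-2B, so the lines overlapped for both genes. All 5 dynein-1 subunits had a log2 fold change above 0 in the edgeR fit, with a median of 0.27, which was 0.07 after correction for transcript GC content and 0.18 without RC4-2B replicate 2.

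Dynein-2 drives retrograde transport inside cilia. Its heavy chain DYNC2H1 measured 21.9, 24.6 and 21.4 CPM in C4-2B and 25.9, 35.7 and 29.97 CPM in RC4-2B. Although these values did not overlap, the log2 fold change of 0.43 did not pass (adjusted p = 0.17 by edgeR). Its light intermediate chain DYNC2LI1 measured 3.46, 3.34 and 2.79 CPM in C4-2B and 3.12, 2.56 and 3.75 CPM in RC4-2B, with a log2 fold change of -0.02 and an interval of -0.55 to 0.51.

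Of the 5 light chains tested, 0 passed by edgeR or DESeq2, beside 1.98% and 5.93% of all genes. At an unadjusted p under 0.05, 2 were lower (40%, beside 21.4% of all genes). The median log2 fold change of the light chains was -0.01. DYNLL1 (LC8), a hub protein that dimerizes many partners beside dynein, was the member of this group with the highest FPKM in C4-2B. It measured 201, 179 and 178 CPM in C4-2B and 144, 146 and 143 CPM in RC4-2B. All 3 RC4-2B libraries lay below the parental ones and close together, but the log2 fold change of -0.36 did not pass (adjusted p = 0.11 by edgeR and 0.064 by DESeq2). It passed without RC4-2B replicate 2 (-0.37, adjusted p = 0.0098). DYNLL1 overlaps the antisense gene NRAV, with 283 to 452 reads per library, and the treatment of strand in the counting is not given in the sources used here.

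Its paralog DYNLL2 had a log2 fold change of 0.14 (adjusted p = 0.37 by edgeR). DYNLL1 made up 57.8% ± 2.23 of the summed FPKM of both LC8 genes in C4-2B and 49.2% ± 0.85 in RC4-2B (SD, n = 3), a ratio that was not tested. DYNLT1, a Tctex-type light chain, measured 21.0, 18.3 and 18.7 CPM in C4-2B and 16.4, 11.9 and 14.2 CPM in RC4-2B. Its log2 fold change of -0.45 did not pass (adjusted p = 0.17 by edgeR). DYNLRB1, a roadblock-type light chain, measured 51.8, 47.0 and 48.7 FPKM in C4-2B and 48.5, 50.4 and 49.6 FPKM in RC4-2B, with a log2 fold change of -0.01 and an interval of -0.24 to 0.21.

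The dynactin complex had a median close to that of all genes. Of its 6 subunits 0 passed by edgeR or DESeq2, beside 1.98% and 5.93% of all genes. At an unadjusted p under 0.05, 1 was higher (16.7%, beside 21.4% of all genes). The median log2 fold change of the subunits was -0.01, and their values ran from -0.19 to 0.38. DCTN1 (p150Glued), the subunit that binds the dynein intermediate chain, measured 97.6, 102 and 105 CPM in C4-2B and 105, 83.7 and 100.2 CPM in RC4-2B. Its log2 fold change was -0.08 with an interval of -0.35 to 0.19. DCTN2 (dynamitin) measured 29.6, 27.6 and 28.4 FPKM in C4-2B and 31.98, 27.4 and 27.6 FPKM in RC4-2B, and its interval was -0.26 to 0.26. The largest log2 fold change of the complex was that of DCTN4 (p62, in the pointed-end group), which measured 144, 150.4 and 157 CPM in C4-2B and 168, 236 and 186 CPM in RC4-2B. Its log2 fold change of 0.38 did not pass (adjusted p = 0.18 by edgeR), and was 0.23 without RC4-2B replicate 2 and 0.22 with GC correction.

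**Figure D3:**
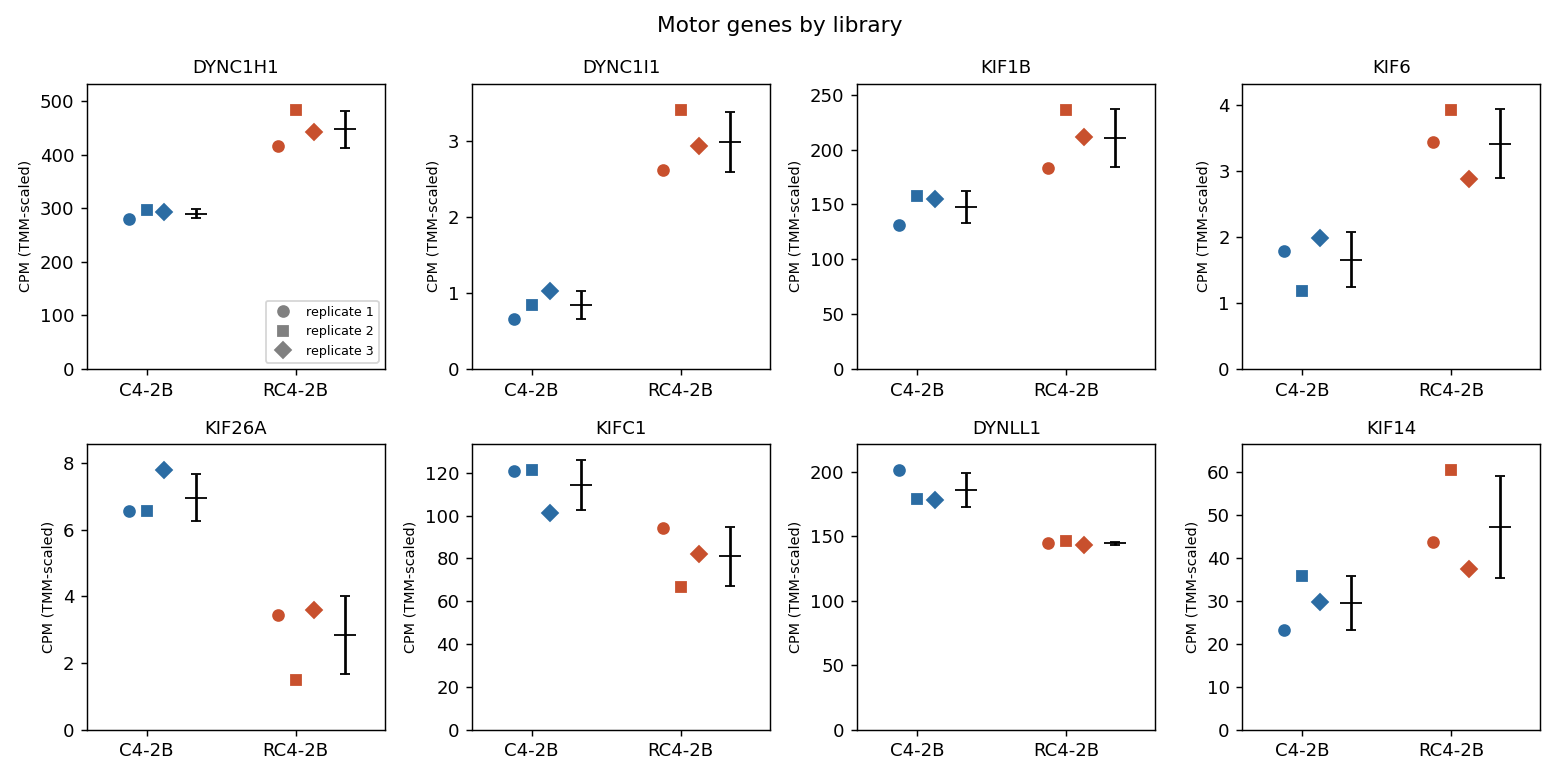
TMM-scaled CPM of 8 motor genes in each library, with marker shapes for replicates 1 to 3 and the mean with SD (n = 3) beside each line. The 8 genes are all from the 19 of 53 tested motor genes whose lines do not overlap, beside 34.1% of all genes tested. In RC4-2B, DYNC1H1, DYNC1I1, KIF1B, KIF6 and KIF14 are higher and KIF26A, KIFC1 and DYNLL1 lower. Of these, DYNC1H1 and DYNC1I1 passed the edgeR test.

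The mitotic kinesins are the motors closest to the known action of taxanes on dividing cells, and were compared as a group with the transport kinesins. Of 12 mitotic kinesins tested, 0 passed in either direction by edgeR or DESeq2, beside 1.98% and 5.93% of all genes. At an unadjusted p under 0.05, 3 were higher and 1 lower (33.3%, beside 21.4% of all genes). The log2 fold changes of these kinesins ran from -0.50 to 0.77, with 10 above 0 and 2 below. The median was 0.30 against 0.0062 for all genes tested. The 15 transport kinesins tested gave 0 calls by edgeR and 1 by DESeq2 (6.67%, beside 5.93% of all genes). At an unadjusted p under 0.05, 2 were higher and 0 lower (13.3%, beside 21.4% of all genes). The transport kinesins had 12 values above 0, 3 below and a median of 0.14. By library, the median deviation of the mitotic kinesins from the C4-2B mean was -0.04, 0.10 and -0.09 (log2) for parental libraries 1 to 3 and 0.24, 0.58 and 0.09 for those of RC4-2B, so RC4-2B replicate 3 lay within the range of C4-2B. In bulk RNA a larger share of dividing cells and more RNA per dividing cell cannot be told apart. By cell counts and morphology, the study reported similar proliferation and a nearly equal mitotic index in both untreated lines. The relation of those counts to the RNA values was not tested. For the transport kinesins the median deviation was -0.09, 0.04 and 0.06 for C4-2B, and 0.0013, 0.30 and 0.22 for RC4-2B.

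The difference between both groups, mitotic minus transport, was 0.05, 0.06 and -0.15 for C4-2B, and 0.24, 0.29 and -0.13 for RC4-2B. These values overlapped between the lines. The mitotic median also depended on RC4-2B replicate 2 and on transcript GC content. It was 0.15 without that library, 0.17 with GC correction and 0.10 with both, while the transport median was 0.14, 0.14 and 0.08 in the same fits.

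**Figure D4:**
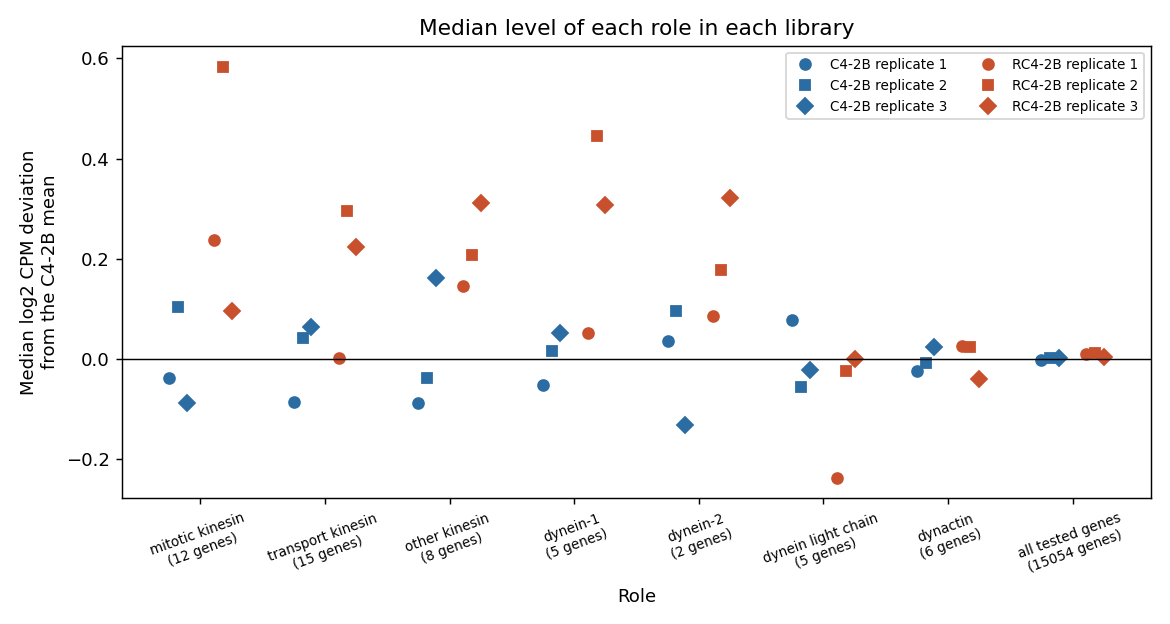
Median deviation of log2 CPM from the C4-2B mean in each library for each role and for all 15054 tested genes. RC4-2B replicate 2 is the highest library for the mitotic kinesins (0.58) and for the dynein-1 subunits (0.44), while dynactin and all tested genes stay near 0 in all 6 libraries.

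Within the mitotic kinesins, the largest positive values were those of KIF18A, KIF14 and KIF20B. KIF14, which acts with citron kinase at the midbody, measured 23.1, 35.7 and 29.7 CPM in C4-2B and 43.5, 60.3 and 37.4 CPM in RC4-2B (log2 fold change 0.67, adjusted p = 0.14 by edgeR). KIF18A, which dampens chromosome oscillations at the metaphase plate, measured 10.96, 14.0 and 13.5 CPM in C4-2B and 17.7, 32.96 and 14.9 CPM in RC4-2B (0.77, adjusted p = 0.18). KIF20B, a kinesin of late cytokinesis, measured 32.6, 37.8 and 36.1 CPM in C4-2B and 42.1, 68.0 and 46.2 CPM in RC4-2B (0.55, adjusted p = 0.16). For each of these genes the lines did not overlap, and RC4-2B replicate 2 was the highest library. Without it the log2 fold changes were 0.45 for KIF14, 0.34 for KIF18A and 0.31 for KIF20B.

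KIFC1 (HSET) went the other way. KIFC1 is a minus-end directed kinesin that focuses spindle poles and clusters extra centrosomes. It measured 121, 121 and 101 CPM in C4-2B and 94.0, 66.7 and 82.1 CPM in RC4-2B, with every RC4-2B library below every C4-2B library. The log2 fold change of -0.50 did not pass (95% interval -0.85 to -0.16, adjusted p = 0.13 by edgeR and 0.055 by DESeq2). Without RC4-2B replicate 2 it was -0.38 and passed (adjusted p = 0.024 by edgeR). With GC correction it was -0.32 and did not pass (adjusted p = 0.073), and with both it was -0.33 and passed (adjusted p = 0.022). KIFC1 carries the CHR core and the CCAAT box, as do KIF14 and KIF18A in the sequences printed here, and its value had the opposite sign. The transcript GC content was 57.5% for KIFC1, 38.3% for KIF14 and 36.0% for KIF18A, and its part in these signs was not tested.

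KIF11 (Eg5), the plus-end motor that pushes spindle poles apart and the target of a class of mitotic inhibitors, measured 69.8, 81.2 and 74.9 CPM in C4-2B and 78.4, 128 and 88.3 CPM in RC4-2B. Its lines overlapped and its log2 fold change of 0.38 did not pass (adjusted p = 0.26 by edgeR). Without replicate 2 of RC4-2B it was 0.15. KIF2C (MCAK), a depolymerase that corrects kinetochore attachments, measured 97.8, 107 and 85.4 CPM in C4-2B and 124, 111 and 91.7 CPM in RC4-2B (0.17, interval -0.16 to 0.51).

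KIF20A (MKLP2), a cytokinesis motor, and KIF22 (Kid), a chromosome-arm motor, were the mitotic kinesins with the highest mean FPKM. KIF20A measured 32.5, 40.1 and 30.8 FPKM in C4-2B and 43.0, 55.0 and 34.7 FPKM in RC4-2B (0.33, adjusted p = 0.29 by edgeR, and 0.17 without RC4-2B replicate 2). KIF22 measured 37.1, 34.8 and 32.3 FPKM in C4-2B and 33.3, 24.4 and 29.1 FPKM in RC4-2B (-0.28, adjusted p = 0.28, and -0.16 without it). The lines overlapped for both genes. KIF20A overlaps BRD8 and CDC23 on the opposite strand, so its reads carry the uncertainty over strand. The same holds for KIF18A, which overlaps METTL15 (223 to 377 reads per library against 184 to 579 for KIF18A). KIF4A overlaps PDZD11 in the same way, and shares near-identical sequence with KIF4B. Among other motor genes described here, KIF2A overlaps DIMT1, KIF24 overlaps UBAP1 and DCTN2 overlaps MBD6 on the opposite strand. KIF2A also overlaps IPO11 on the same strand, with 1036 to 1662 reads per library against 814 to 1313 for KIF2A.

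Among mitotic genes outside the motor families, 1 of 22 tested rose and 0 fell by edgeR and by DESeq2, beside 1.98% and 5.93% of all genes called. At an unadjusted p under 0.05, 6 were higher and 0 lower (27.3%, beside 21.4% of all genes), and the median log2 fold change was 0.15. The gene that rose was TOP2A, which untangles sister chromatids (0.84, adjusted p = 0.018 by edgeR, and 0.64 with GC correction, adjusted p = 0.0039). CENPE, the kinetochore kinesin whose symbol the rule does not cover, had a log2 fold change of 0.67 that did not pass (adjusted p = 0.16), and of 0.36 without RC4-2B replicate 2.

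Transport kinesins were led by KIF5B, the ubiquitous conventional kinesin, and KIF1C, which carries dense-core vesicles and integrins. KIF5B measured 46.3, 53.7 and 55.4 FPKM in C4-2B and 54.8, 99.9 and 60.9 FPKM in RC4-2B. Its log2 fold change of 0.44 did not pass (adjusted p = 0.25 by edgeR), and was 0.15 without RC4-2B replicate 2, the library of 99.9 FPKM. KIF1C measured 37.9, 36.2 and 35.5 FPKM in C4-2B and 42.4, 39.5 and 43.4 FPKM in RC4-2B (0.17, adjusted p = 0.33). The neuronal paralog KIF5C made up 5.36% ± 0.52 of the summed KIF5B and KIF5C FPKM in C4-2B and 5.08% ± 0.80 in RC4-2B (SD, n = 3), a difference smaller than the spread between replicates.

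KIF1B, which carries mitochondria or synaptic vesicle precursors depending on the isoform, had the largest positive log2 fold change of the transport kinesins. It measured 131, 157 and 155 CPM in C4-2B and 184, 237 and 212 CPM in RC4-2B, and the lines did not overlap. The log2 fold change of 0.51 (95% interval 0.21 to 0.81) did not pass in edgeR (adjusted p = 0.088) and passed in DESeq2 (adjusted p = 0.038), with GC correction (0.45, adjusted p = 0.035) and without RC4-2B replicate 2 (0.42, adjusted p = 0.010).

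KIF3A pairs with KIF3B in the kinesin-2 of cilia, and with KIF3C in neurons. KIF3C measured 8.64, 10.97 and 10.4 CPM in C4-2B and 13.6, 15.5 and 12.4 CPM in RC4-2B (0.47, adjusted p = 0.17 by edgeR). KIF3A measured 37.4, 38.3 and 38.5 CPM in C4-2B and 32.3, 42.1 and 39.9 CPM in RC4-2B, and its interval was -0.30 to 0.31. KIF1A, a vesicle motor best known from axons, measured 10.1, 10.7 and 10.5 FPKM in C4-2B and 10.4, 8.53 and 12.7 FPKM in RC4-2B, with an interval of -0.36 to 0.35. KIFC2 measured 28.4 and 25.1 CPM in RC4-2B replicates 1 and 3 and 7.11 CPM in replicate 2, against 31.1 to 33.8 CPM in C4-2B (-0.69, adjusted p = 0.33). Its transcript has a GC content of 68.1%, and its log2 fold change was -0.29 without replicate 2, -0.23 with GC correction and -0.09 with both.

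The kinesins outside both groups gave 0 calls of 8 tested by edgeR and 1 lower by DESeq2 (12.5%, beside 5.93% of all genes). At an unadjusted p under 0.05, 1 was higher and 1 lower (25%, beside 21.4% of all genes). KIF26A, an atypical kinesin without ATPase activity that acts in signalling, measured 6.55, 6.56 and 7.79 CPM in C4-2B and 3.43, 1.48 and 3.58 CPM in RC4-2B. All RC4-2B libraries lay below those of C4-2B. The log2 fold change of -1.30 (95% interval -2.02 to -0.59) did not pass in edgeR (adjusted p = 0.075) and passed in DESeq2 (adjusted p = 0.0043). Its transcript has a GC content of 68.6%, and the value was -0.75 with GC correction (adjusted p = 0.042) and -0.99 without RC4-2B replicate 2 (adjusted p = 0.0049).

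KIF6 was low but separated between the lines, with 30, 21 and 35 reads in C4-2B and 55, 69 and 49 reads in RC4-2B. Its log2 fold change of 1.04 did not pass (adjusted p = 0.094 by edgeR). KIF2A, a depolymerase of spindle poles and neurites, measured 9.62, 9.65 and 9.76 FPKM in C4-2B and 9.54, 14.7 and 11.3 FPKM in RC4-2B (0.26, adjusted p = 0.33, and 0.10 without RC4-2B replicate 2). KIF24, which restrains the growth of cilia, measured 3.28, 4.23 and 3.51 FPKM in C4-2B and 3.88, 5.60 and 4.86 FPKM in RC4-2B (0.35, adjusted p = 0.25). KIF7, a regulator of Hedgehog signalling in cilia that was named after its values were seen, had a log2 fold change of 0.39 (adjusted p = 0.36), of 0.80 with GC correction (adjusted p = 0.029) and of 0.60 without RC4-2B replicate 2 (adjusted p = 0.047). KIF7 overlaps TICRR on the opposite strand, with 577 to 888 reads per library against 83 to 137 for KIF7.

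**Figure D5:**
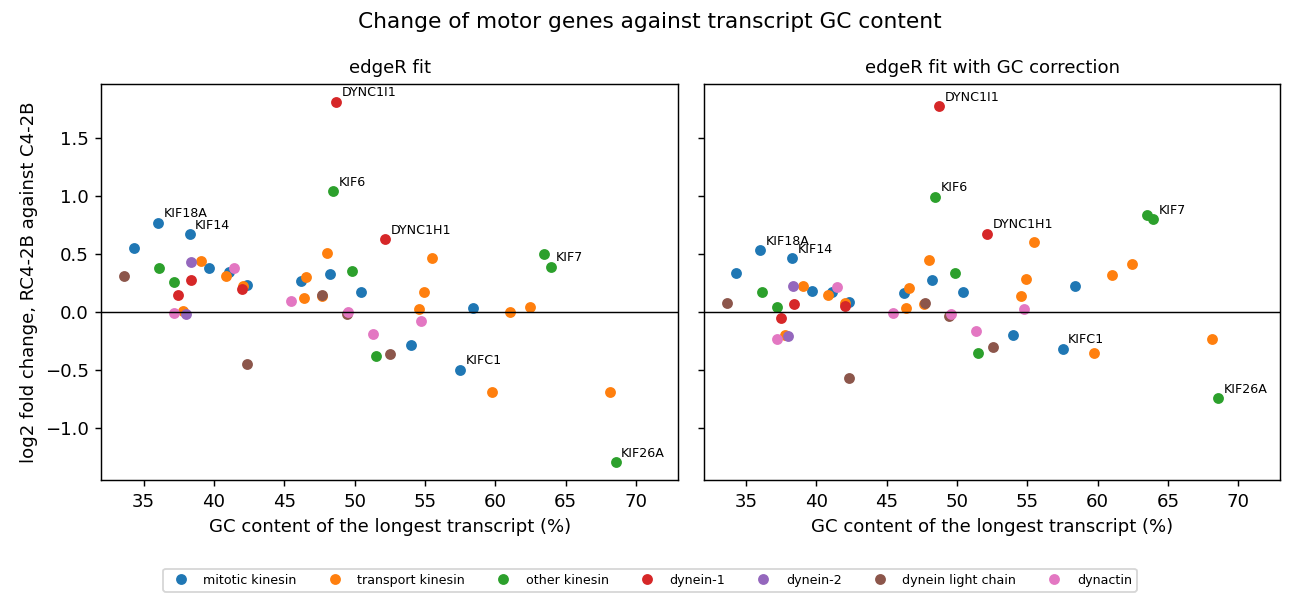
Log2 fold change of each tested motor gene against the GC content of its longest transcript, in the edgeR fit (left) and with GC correction (right), with colours for roles. In the left panel the AT-rich mitotic kinesins KIF18A and KIF14 lie high and the GC-rich KIF26A lies low. Other genes differ: the GC-rich KIF12 (0.50) and KIF7 (0.39) lie above 0, and the AT-rich DCTN6 (-0.01) and KIF3A (0.0034) near 0. The Spearman correlation over 53 genes was -0.38, and 0.02 after correction. The correction takes out a trend with this same GC content over all tested genes, so a value near 0 is largely built in.

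Because RC4-2B replicate 2 followed GC content, each motor gene was also read with that in view. Across the 53 tested motor genes, which share libraries and are not independent, the Spearman correlation of the deviation from the C4-2B mean with transcript GC content was -0.04, -0.63 and -0.21 in RC4-2B replicates 1, 2 and 3. The 21 genes under 45% GC had median deviations of 0.05, 0.57 and 0.23 in these libraries, and the 32 other genes 0.04, -0.01 and 0.06. With GC correction 5 motor genes were higher and 1 lower of 53, beside 7.6% of all genes tested: DYNC1H1, DYNC1I1, KIF1B, KIF6 and KIF7 were higher and KIF26A was lower. Without RC4-2B replicate 2 there were 4 higher and 3 lower of 54, beside 12.5% of all genes: DYNC1H1, DYNC1I1, KIF1B and KIF7 were higher and DYNLL1, KIFC1 and KIF26A lower. DYNC1H1, DYNC1I1, KIF1B and KIF7 were called higher and KIF26A lower in both of these fits.

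The motors work with adaptors and regulators. Of 35 such partner genes tested, 1 rose and 0 fell by edgeR, beside 1.98% of all genes called. At an unadjusted p under 0.05, 6 were higher and 3 lower (25.7%, beside 21.4% of all genes), and the median log2 fold change was -0.04. The gene that rose was PAFAH1B1 (LIS1), which binds the dynein motor domain and helps it form active complexes with dynactin. PAFAH1B1 measured 121, 120.4 and 120.1 CPM in C4-2B and 163, 182 and 168 CPM in RC4-2B, and the lines did not overlap (0.51, 95% interval 0.28 to 0.73, adjusted p = 0.044 by edgeR). With GC correction its value was 0.33 (adjusted p = 0.051), and without RC4-2B replicate 2 it was 0.46 (adjusted p = 0.0014). PAFAH1B1 and TOP2A lie on chromosome 17, where the median log2 fold change over 944 tested genes was 0.15, and 0.23 with GC correction. The tested motor genes DYNLL2, KIF1C and KIF18B lie there too, at -0.01, 0.02 and -0.12 relative to the median of that chromosome's other genes. The part of the chromosome median in these values and calls was not tested. DESeq2 called 2 partners higher (5.71%, beside 5.93% of all genes), PAFAH1B1 and NIN (ninein), a centrosomal dynein adaptor (adjusted p = 0.030). KLC1, a light chain of conventional kinesin, had a log2 fold change of -0.38 that did not pass (adjusted p = 0.26 by edgeR), and -0.20 without RC4-2B replicate 2.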

How the data were processed

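Per the labels, 3 biological replicates of C4-2B and 3 of RC4-2B were sequenced as total RNA. The authors aligned reads with STAR (GRCh38) and deposited counts, whole reads per gene without normalization, and FPKM, the counts per gene length and library total. How reads were counted, whether by strand and on which annotation, is not given in the sources used here. The test on counts was that of edgeR 4.0.16 in R 4.3.3 (TMM scaling, filterByExpr with a minimum of 10 counts, glmQLFit and glmQLFTest, cell line as the only term, Benjamini-Hochberg threshold of 0.05). CPM values are TMM-scaled, and levels between genes were compared as FPKM.

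The genes, roles, partner and mitotic lists and cell type markers were chosen with earlier results of these data known. Genes were given with every library's value if they passed in edgeR or DESeq2, if their unadjusted p was under 0.05 without overlap, if they were the top pair of a role by FPKM, or if they are core members. No list was tested as a set. GC correction used a lowess trend (span 0.2) on the longest transcript's GC content (GENCODE release 44, 99.55% of tested genes) as an offset.

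Alternatives were DESeq2 1.42.0, limma 3.58.1 on log2 FPKM with a pseudocount of 1 or 0.1 (FPKM of at least 1 in 3 libraries), RLE and upper-quartile scaling, other count filters, a replicate block, each library left out, other role lists, means, and values relative to the chromosome. On simulated data 200 of 200 genes changed 4-fold were recovered among 14788 genes, with 9 of 14588 unchanged genes called. The changed genes were drawn from levels above that of DYNC1I1, and no library with a GC trend was simulated. This run therefore does not show how often smaller changes, such as those of most motor genes, are found. Promoters came from RefSeq.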

Additional observations from a re-analysis of the deposited data

How the results depend on the processing

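With 3 libraries per line, the number of calls moved with nearly every setting. All genes called higher and lower, 162 and 136 by edgeR, were 500 and 402 by DESeq2, 604 and 646 without a filter, 654 and 490 with GC correction, 46 and 58 by limma on log2(FPKM + 1), 39 and 47 on log2(FPKM + 0.1), and 1036 and 1009 with GC correction and without RC4-2B replicate 2, a setting chosen after seeing the data. Leaving out 1 library gave 13 to 1000 higher and 31 to 925 lower. Motor genes called higher, 2 by edgeR, were 6 without a filter, 5 with GC correction, 0 in both limma fits, 6 with GC correction and without RC4-2B replicate 2, and 0 to 4 with 1 library left out. Motor genes called lower, 0 by edgeR, were 1 by DESeq2, 2 without a filter, 1 with GC correction, 4 with GC correction and without RC4-2B replicate 2, and 0 to 3 with 1 library left out.

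The replicate block gave 55 and 74 calls over all genes and 0 higher motor genes, with an adjusted p by edgeR of 0.0504 for DYNC1H1 and 0.054 for DYNC1I1. With GC correction as well it gave 633 and 557 calls, and 4 motor genes higher and 1 lower. Same-numbered libraries correlated at 0.39, 0.22 and -0.09 in their deviations from the line means, so they were taken to share only a number, and C4-2B replicate 3 correlated better with RC4-2B replicate 2 (0.23).

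DYNC1H1 and DYNC1I1 kept their direction in the 17 and 15 alternatives that gave a value, with an adjusted p under 0.05 in 10 of each, and DYNC1H1 missed it by limma (0.065 and 0.068). The dynein and dynactin median of 0.12 was 0.0067 with GC correction and 0.0070 with the block as well. Signs turned for uncalled genes near 0: DCTN1 (GC correction 0.024, with block 0.025, GC correction without RC4-2B replicate 2 0.036, 1 library left out -0.14 to 0.011), DCTN2 (DESeq2 -0.0093, RLE -0.0097, no filter -0.0040, mean filter -0.00058, block -0.0042, GC correction -0.022, with block -0.025, 1 library left out -0.086 to 0.057), DYNLRB1 (limma 0.011 and 0.011, 1 library left out -0.045 to 0.024), DYNC2LI1 (GC correction without RC4-2B replicate 2 0.027, 1 library left out -0.17 to 0.11), KIF1A (upper quartile 0.0041, GC correction 0.32, with block 0.31, limma 0.00045, GC correction without RC4-2B replicate 2 0.26, 1 library left out -0.17 to 0.14) and KIF3A (DESeq2 -0.0041, RLE -0.0054, no filter -0.00078, block -0.0050, GC correction -0.20, with block -0.21, GC correction without RC4-2B replicate 2 -0.16, 1 library left out -0.073 to 0.11). The cause of these changes was not tested.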

Other observations

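DYNC1H1 and KIF26A, whose log2 fold changes were 0.63 and -1.30, start 2.17 Mb apart on chromosome 14, where the median over 495 tested genes was 0.01. DYNC1I1 starts 8.06 Mb from the end of ABCB1, the drug efflux pump gene of the region on chromosome 7. This interval was chosen after the values were seen. Of 32 tested genes between them 3 were called higher and 0 lower. That was 9.38%, beside 2.12% of the tested genes of chromosome 7 and 1.98% of all tested genes. The log2 fold changes of these 32 genes ran from -3.42 to 3.13. Their median was 0.25, beside 0.04 for 753 tested genes of chromosome 7. Of the 4 tested genes within 1 Mb of DYNC1I1 0 were called, and their median was 0.22. PON2 and PPP1R9A were in both sets.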
